A study of Macaca mulatta with 24 samples.

Results

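The genes examined were the BCL2 family of apoptosis regulators, chosen by gene symbol from a list of 10: the guardians BCL2, BCL2L1 and MCL1, the pore-forming effectors BAX and BAK1, and the BH3-only proteins BBC3, PMAIP1, BID, BCL2L11 and BIK. Of these, 7 genes were measured, by 15 of the 43603 probes on the array, which carries 16094 gene symbols. BCL2L1 and MCL1 had 2 probes each, BAX, BAK1 and BCL2L11 had 3 each, and PMAIP1 and BIK had 1 each, and probes of the same gene are numbered here from the brightest to the dimmest. BCL2, BBC3 and BID were not analysed here, because no probe with those symbols was found in the tables used.

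Proteins of the BCL2 family control the release of cytochrome c from mitochondria, the step that commits a cell to the intrinsic pathway of apoptosis. BAX and BAK1 form the pores, the guardians hold them in check, and the BH3-only proteins act as stress sensors that neutralise guardians or activate the effectors. In irradiated gut, p53 is known to activate transcription of BAX and of PMAIP1, which encodes NOXA, and dividing crypt cells are the cells best known to die in this way.

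Colon was collected from 24 young-adult male rhesus macaques, 1 array per animal. The 4 sham-irradiated controls carry a day-4 label and served as the baseline for every group. The irradiated animals were given a single total-body irradiation (TBI) with cobalt-60 gamma rays, at a dose of 6.7 Gy or of 7.4 Gy, and were killed on day 4, 7 or 12, with 4 animals per dose on days 4 and 7 and 2 per dose on day 12. RNA was extracted from a piece of whole colon wall of each animal without pooling, so in this bulk tissue fewer cells of a type and less RNA per cell cannot be told apart.

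A level is the log2 signal of a probe minus the 75th percentile of its array, so 0 means a signal equal to that percentile, and levels are compared between animals and never between probes. The 75th percentile lay between 558.3 and 970.6 intensity units, the share of probes well above background ran from 66.8% to 85.0%, and arrays of a group correlated at 0.969 to 0.987 across probes. All 15 probes of the family passed the filter on dim probes. PMAIP1 was well above background on 23 of 24 arrays, BCL2L11 probe 3 on 12, and the other 13 probes on 24. A change is the difference of group means on the log2 scale with its standard error (SE) from limma, and it was called where the Benjamini-Hochberg adjusted p over all 38234 probes tested was under 0.05.

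BAX rose on day 4 after both doses and fell from day 4 to days 7 and 12. PMAIP1 was called higher on day 4 after both doses, but its call after 6.7 Gy was lost under 7 of 23 alternative analyses. After 6.7-Gy TBI, 4 of the 15 family probes passed the test on day 4, against 9.88% of all probes. All 4 were higher, a direction in which 4.43% of all probes passed, and they were the 3 BAX probes and PMAIP1. After 7.4-Gy TBI, 7 of 15 passed, against 20.1% of all probes. Of these, 6 were higher, against 8.5% of all probes, and 1 was lower, against 11.6%. The additional genes were the guardian BCL2L1 and the BH3-only gene BCL2L11, each higher by 1 probe, and the BH3-only gene BIK, which was lower. Probes of the same gene are not separate members. By the brightest probe of each gene, 2 of 7 genes passed after 6.7 Gy and 5 of 7 after 7.4 Gy, against 10.9% and 21.9% of all genes. The median change of the 15 probes on day 4 was 0.37 after 6.7 Gy and 0.52 after 7.4 Gy, while the median over all probes was -0.07 and -0.08.

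**Figure D1:**
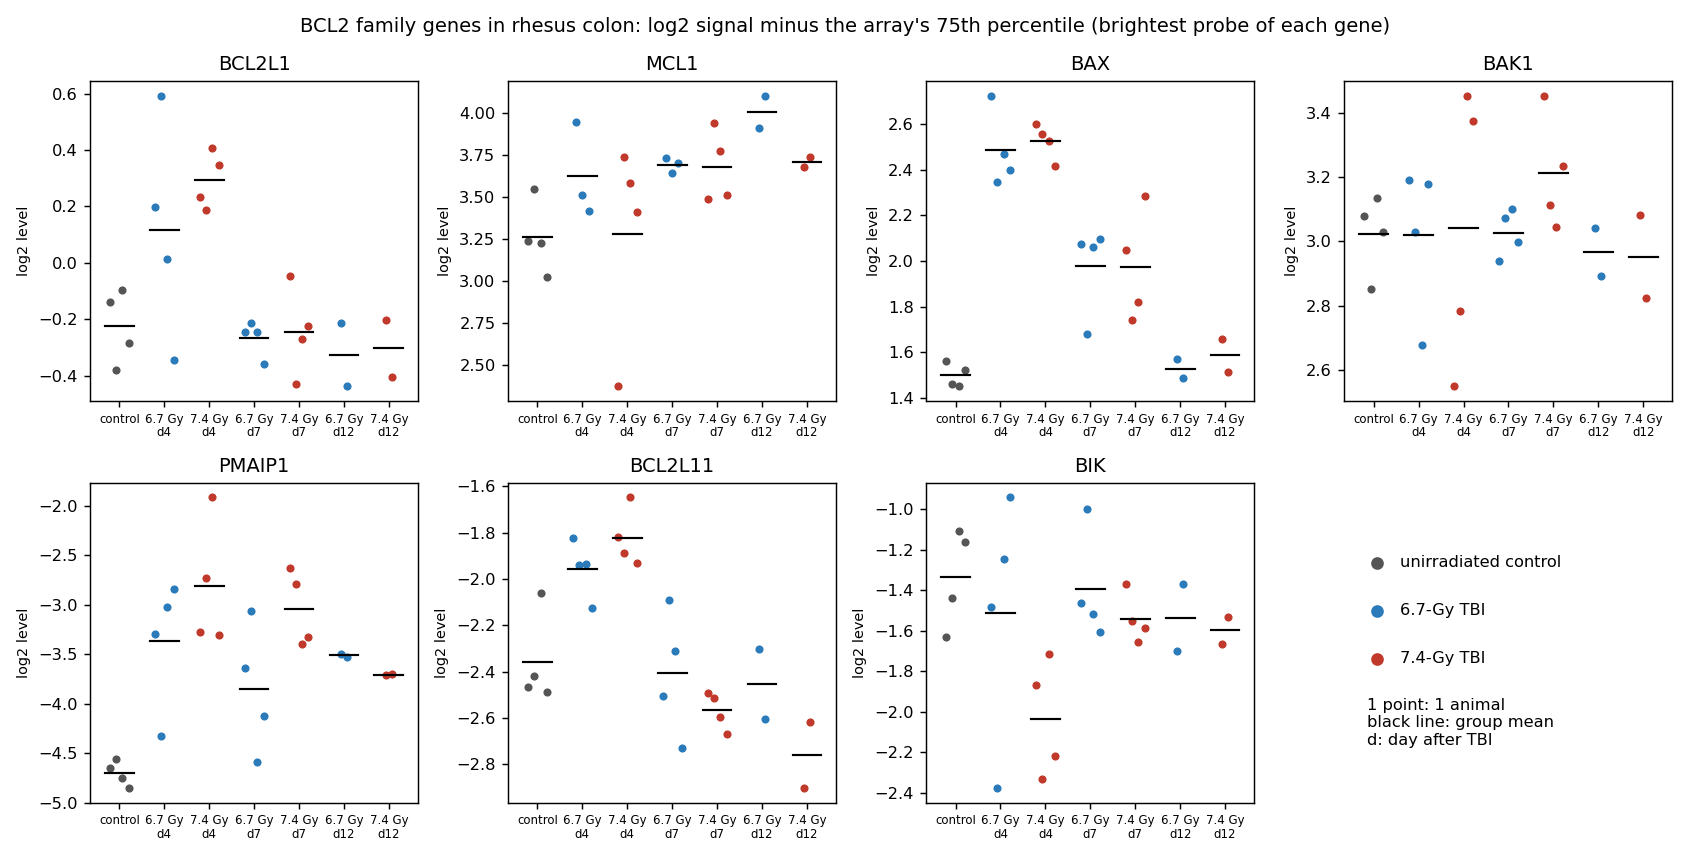
Levels of the 7 measured BCL2 family genes in each animal, by group on the x axis (d4, d7 and d12 are days after TBI), as the log2 signal minus the 75th percentile of the array on the y axis, for the brightest probe of each gene. Each point is 1 animal and the black line is the group mean. BAX stands between 2.34 and 2.72 in all day-4 animals and between 1.45 and 1.56 in controls, while every irradiated BAK1 group overlaps the controls. MCL1 has 3 points in the 6.7-Gy groups on days 4 and 7, because 1 spot in each was an outlier and was left out.

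BAX, whose protein moves to mitochondria and forms the pore, was the member with the most regular change. By probe 1, the controls had levels of 1.56, 1.46, 1.45 and 1.52. On day 4 the levels were 2.72, 2.34, 2.47 and 2.40 after 6.7-Gy TBI and 2.60, 2.56, 2.53 and 2.42 after 7.4-Gy TBI. Every day-4 animal was above every control, and the animals of the 2 doses overlapped.

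Compared with control, BAX probe 1 rose by 0.98 ± 0.13 (SE, n = 4 per group) on the log2 scale after 6.7 Gy, a fold of 1.98 with limma's adjusted p = 0.000304. After 7.4 Gy it rose by 1.02 ± 0.13, a fold of 2.03 with adjusted p = 4.43e-05. The other probes gave the same direction with larger values. Probe 2 rose by 1.25 ± 0.15 and 1.39 ± 0.15, with adjusted p = 0.000166 and 1.55e-05, and probe 3 by 1.09 ± 0.12 and 1.22 ± 0.12, with adjusted p = 6.21e-05 and 5.73e-06. By size, these changes exceeded 92.9% to 96.2% of all probes after 6.7 Gy and 90.5% to 95.6% after 7.4 Gy.

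On day 7, BAX lay between its control and its day-4 levels. Probe 1 had levels of 2.07, 1.68, 2.06 and 2.10 after 6.7 Gy and of 2.05, 1.74, 1.82 and 2.28 after 7.4 Gy, all above the highest control and all below the lowest day-4 animal. The change against control was 0.48 ± 0.13 after 6.7 Gy and 0.47 ± 0.13 after 7.4 Gy, and it did not pass the test at either dose (limma adjusted p = 0.12 and 0.115). Probe 3, with changes of 0.54 ± 0.12 and 0.52 ± 0.12, came closest to it, at adjusted p = 0.0549 and 0.0557. Without control replicate 1, whose level of 0.53 was the highest of the controls, probe 3 passed at both doses, with changes of 0.61 and 0.59 and adjusted p = 0.0286 and 0.0309. Without replicate 3 of 7.4 Gy on day 7 it passed at that dose, with a change of 0.59 and adjusted p = 0.0281.

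On day 12 the levels of BAX probe 1 were 1.57 and 1.49 after 6.7 Gy and 1.66 and 1.52 after 7.4 Gy, which overlapped the controls. The changes against control were 0.03 ± 0.16 and 0.09 ± 0.16, with limma adjusted p = 0.993 and 0.965. Probe 2 had a larger value after 6.7 Gy, 0.46 ± 0.19, with both animals above the controls, an unadjusted p = 0.0239 in limma and an adjusted p of 0.675. From lowest to highest, the group means of probe 1 were 1.5 in controls, 1.53 and 1.59 on day 12 after 6.7 and 7.4 Gy, 1.97 and 1.98 on day 7 after 7.4 and 6.7 Gy, and 2.48 and 2.52 on day 4 after 6.7 and 7.4 Gy. Animals of the 2 doses on the same day overlapped, controls overlapped with day 12, and the animals of days 12, 7 and 4 did not overlap with one another by probe 1. By probe 2, days 12 and 7 overlapped.

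The other effector, BAK1, showed no change that passed the test on any day. Its brightest probe had control levels of 3.08, 2.85, 3.13 and 3.03, against 2.55, 2.78, 3.45 and 3.37 on day 4 after 7.4 Gy, a group that spread to both sides of the controls. Over its 3 probes, the day-4 changes ran from -0.17 to 0.02 after 6.7 Gy and from -0.05 to 0.02 after 7.4 Gy. The 95% confidence intervals of those 6 changes lay between -0.41 and 0.39, so a rise as large as that of BAX was outside each of them.

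**Figure D2:**
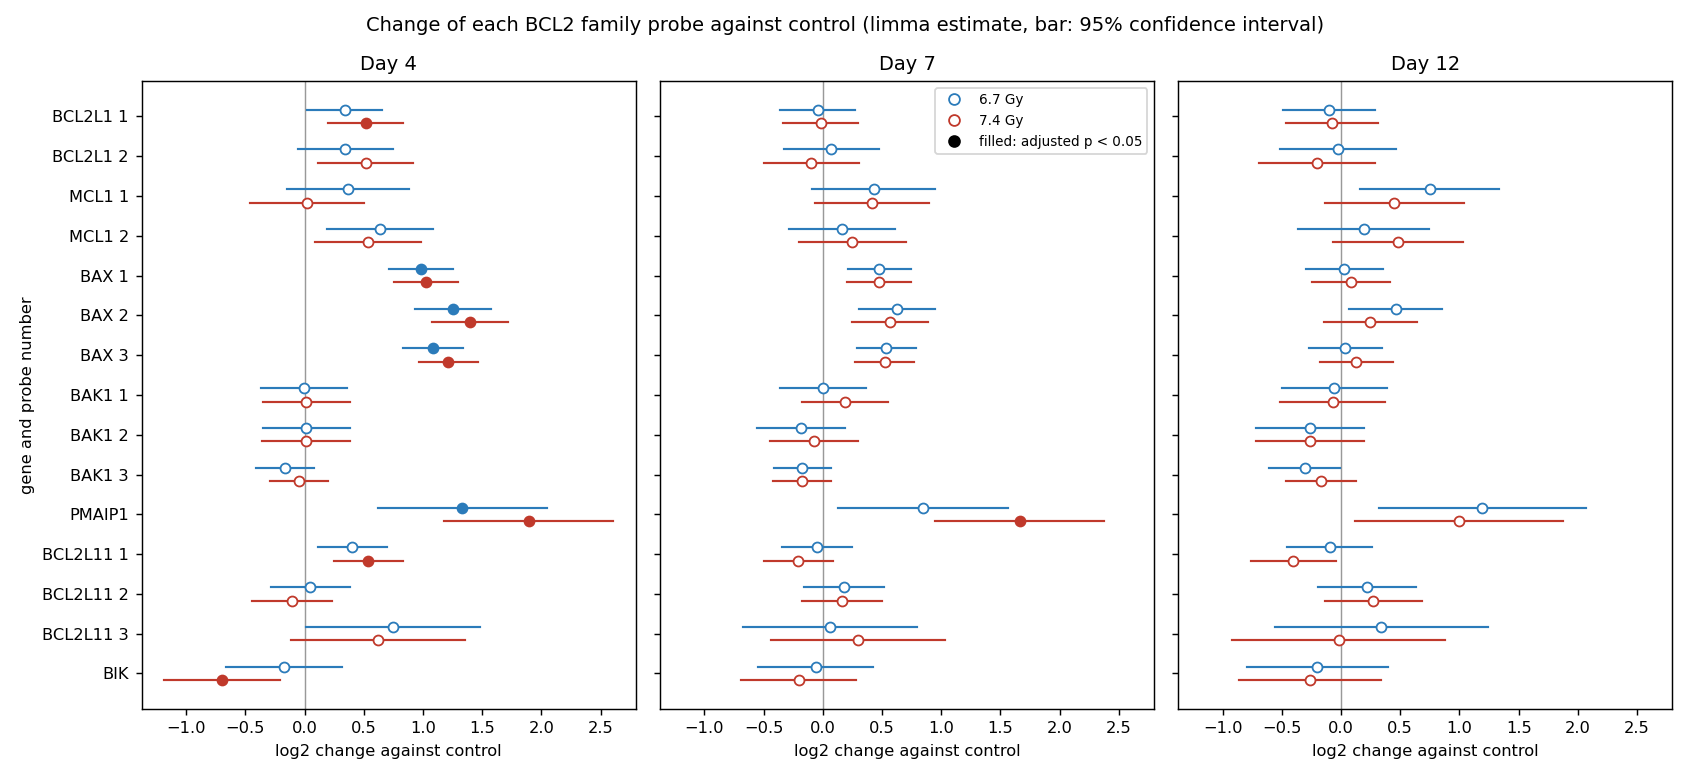
Change against control of the 15 BCL2 family probes on days 4, 7 and 12 (panels), on a log2 x axis, with each gene and its probe number on the y axis. Points are limma estimates, bars are 95% confidence intervals and filled points passed an adjusted p of 0.05. On day 4 the 3 BAX probes and PMAIP1 are filled at both doses, and on day 7 PMAIP1 after 7.4 Gy is the only filled point.

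PMAIP1, a BH3-only gene whose product NOXA neutralises MCL1, had the largest day-4 changes of the family, with SDs between animals of 0.66 and 0.65 after 6.7 and 7.4 Gy and 0.13 in controls. Control levels were -4.65, -4.56, -4.75 and -4.85, with 1 of the 4 not well above background. On day 4 the levels were -3.30, -4.32, -3.02 and -2.85 after 6.7 Gy and -3.28, -2.73, -1.92 and -3.31 after 7.4 Gy. All 8 irradiated animals were above all controls, though replicate 2 of the 6.7-Gy group was close to them.

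PMAIP1 rose by 1.33 ± 0.34 on day 4 after 6.7 Gy (limma adjusted p = 0.0194, fold 2.52) and by 1.89 ± 0.34 after 7.4 Gy (adjusted p = 0.000903, fold 3.72). By size, the latter change exceeded 98.2% of all probes. The call at 6.7 Gy was lost without replicate 3 of that group (1.21, adjusted p = 0.0565) and without replicate 4 (1.16, adjusted p = 0.0529). It was also lost with only the groups compared, by the methods' t-test and under background correction by normexp, which gave 0.52 with adjusted p = 0.209. At 7.4 Gy, normexp correction gave a smaller change of 0.81 with adjusted p = 0.0322, and the call was lost with array position as a block, which gave 1.02 with adjusted p = 0.256.

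PMAIP1 was also the only one of the 15 family probes called on day 7. That call was made after 7.4 Gy, where 0.526% of all probes passed. The levels were -2.64, -2.80, -3.40 and -3.33, all above the controls, with a change of 1.66 ± 0.34 and limma's adjusted p = 0.0324. The call was lost without control replicate 2 (1.71), 3 (1.65) or 4 (1.61) and without replicate 1 (1.53), 2 (1.58) or 4 (1.76) of the irradiated group, with adjusted p between 0.0711 and 0.106, and normexp correction gave 0.76 with adjusted p = 0.26.

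After 6.7 Gy on day 7, PMAIP1 had levels of -3.64, -3.07, -4.59 and -4.13, and replicate 3 fell inside the control range. The change of 0.85 ± 0.34 did not pass the test (limma adjusted p = 0.41). On day 12 all 4 animals were above the controls, at -3.50 and -3.53 after 6.7 Gy and -3.72 and -3.70 after 7.4 Gy. The changes of 1.19 ± 0.42 and 0.997 ± 0.42 had unadjusted p = 0.0101 and 0.0277 in limma and adjusted p = 0.583 and 0.657, with 2 animals per dose. From lowest to highest, the group means were -4.70 in controls, -3.86 on day 7 after 6.7 Gy, -3.71 and -3.51 on day 12 after 7.4 and 6.7 Gy, -3.37 on day 4 after 6.7 Gy, -3.04 on day 7 after 7.4 Gy and -2.81 on day 4 after 7.4 Gy. Among neighbours in that order, the 2 day-12 groups alone did not overlap.

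BCL2L11, which encodes the BH3-only protein BIM, gave a different picture by each probe, and the array lists its 3 probes under 3 different transcripts. Probe 1 had control levels of -2.47, -2.42, -2.06 and -2.49, and day-4 levels of -1.82, -1.89, -1.65 and -1.93 after 7.4 Gy, all above the controls. It rose by 0.54 ± 0.14 (limma adjusted p = 0.0112), or 0.81 under spike-in scaling. The call was lost under normexp correction, at 0.23 with adjusted p = 0.289, and with array position as a block, at 0.68 with adjusted p = 0.0915. After 6.7 Gy the change was 0.40 ± 0.14 with adjusted p = 0.0718, or 0.50 with adjusted p = 0.0417 without control replicate 3.

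Probe 2 of BCL2L11 changed by -0.10 ± 0.16 on day 4 after 7.4 Gy, with control and irradiated animals overlapping (limma adjusted p = 0.694). Probe 3 was well above background on 0 of the 4 control arrays and on 3 of 4 arrays at each dose on day 4, so no fold is given for it, and it passed the test in no comparison. A further 2 probes are described as BCL2L11 3′ UTR clones but carry no gene symbol, so they stand outside the family as chosen here. Their day-4 changes were 0.17 ± 0.18 and 0.34 ± 0.24 after 6.7 Gy and 0.12 ± 0.18 and 0.41 ± 0.24 after 7.4 Gy, none of which passed the test.

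BIK, a BH3-only protein of the endoplasmic reticulum, was the only family member that fell against control. Control levels were -1.63, -1.44, -1.11 and -1.16, and day-4 levels after 7.4 Gy were -1.87, -2.33, -1.72 and -2.22, all below the controls. It fell by 0.70 ± 0.23 on the log2 scale with limma's adjusted p = 0.0404. This call did not hold under quantile, median or spike-in scaling, which gave -0.67, -0.63 and -0.42 with adjusted p = 0.0517, 0.0747 and 0.256. It was lost without control replicate 2 (-0.73), 3 (-0.62) or 4 (-0.64) and without irradiated replicate 1 (-0.75), 2 (-0.60) or 4 (-0.64), and array position as a block gave -1.53 with adjusted p = 0.0119. After 6.7 Gy the day-4 levels were -1.48, -2.38, -1.25 and -0.94, on both sides of the controls, with a change of -0.18 ± 0.23 and adjusted p = 0.684.

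Of the guardians, BCL2L1, which encodes BCL-xL, rose on day 4 after 7.4 Gy by probe 1. Control levels were -0.14, -0.38, -0.10 and -0.29, and irradiated levels were 0.23, 0.19, 0.41 and 0.35, without overlap. The change was 0.52 ± 0.15 with limma's adjusted p = 0.021, and probe 2, also without overlap, gave the same change of 0.52 ± 0.19 with adjusted p = 0.0619. Probe 2 passed under quantile, median and spike-in scaling (0.61, 0.58 and 0.79), with only the groups compared, by the methods' t-test and with array position as a block (1.28), at adjusted p from 0.00659 to 0.0497, while normexp correction gave 0.05 with adjusted p = 0.87. For probe 1, spike-in scaling gave 0.79 and array position as a block 1.08. The call for probe 1 was lost without control replicate 2 (0.47, adjusted p = 0.0585), without control replicate 4 (0.50, adjusted p = 0.0518) and without irradiated replicate 3 (0.48, adjusted p = 0.0585).

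After 6.7 Gy on day 4, BCL2L1 probe 1 had levels of 0.20, 0.59, 0.01 and -0.34, and replicate 4 alone lay within the control range. The change was 0.34 ± 0.15 with limma's adjusted p = 0.159, and without replicate 4 it was 0.49 with adjusted p = 0.0324. Probe 2 likewise moved from 0.34 with adjusted p = 0.268 to 0.56 with adjusted p = 0.0377 without that animal. On days 7 and 12 the changes of both probes against control lay between -0.20 and 0.07, and none passed the test.

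MCL1, the guardian that NOXA binds, did not pass the test against control in any group, and its 2 probes differed. Probe 2 had control levels of 2.72, 2.70, 2.82 and 1.80 and day-4 levels of 3.23, 3.54, 3.08 and 2.74 after 6.7 Gy and 2.98, 2.95, 3.17 and 3.07 after 7.4 Gy. Its changes were 0.64 ± 0.22 and 0.53 ± 0.22, with limma adjusted p = 0.0661 and 0.0854. The first was 0.77 with adjusted p = 0.0371 without replicate 4 of 6.7 Gy, and 0.40 with adjusted p = 0.213 without control replicate 4, the lowest of the controls. By probe 2, every day-4 animal after 7.4 Gy was above every control. Probe 2 passed under spike-in scaling at both doses, with 0.85 and 0.81 and limma's adjusted p = 0.0242 and 0.0171. After 6.7 Gy it also passed with array position (0.87, adjusted p = 0.0405) or replicate number (0.64, adjusted p = 0.0436) as a block. Probe 1 changed by 0.37 ± 0.25 and 0.02 ± 0.23 on day 4, and replicate 1 after 7.4 Gy, at 2.37, was below every other animal. On day 12 after 6.7 Gy, probe 1 stood at 3.91 and 4.10, above control levels of 3.24, 3.55, 3.22 and 3.02, with a change of 0.75 ± 0.28, an unadjusted p = 0.0156 in limma and an adjusted p of 0.617.

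**Figure D3:**
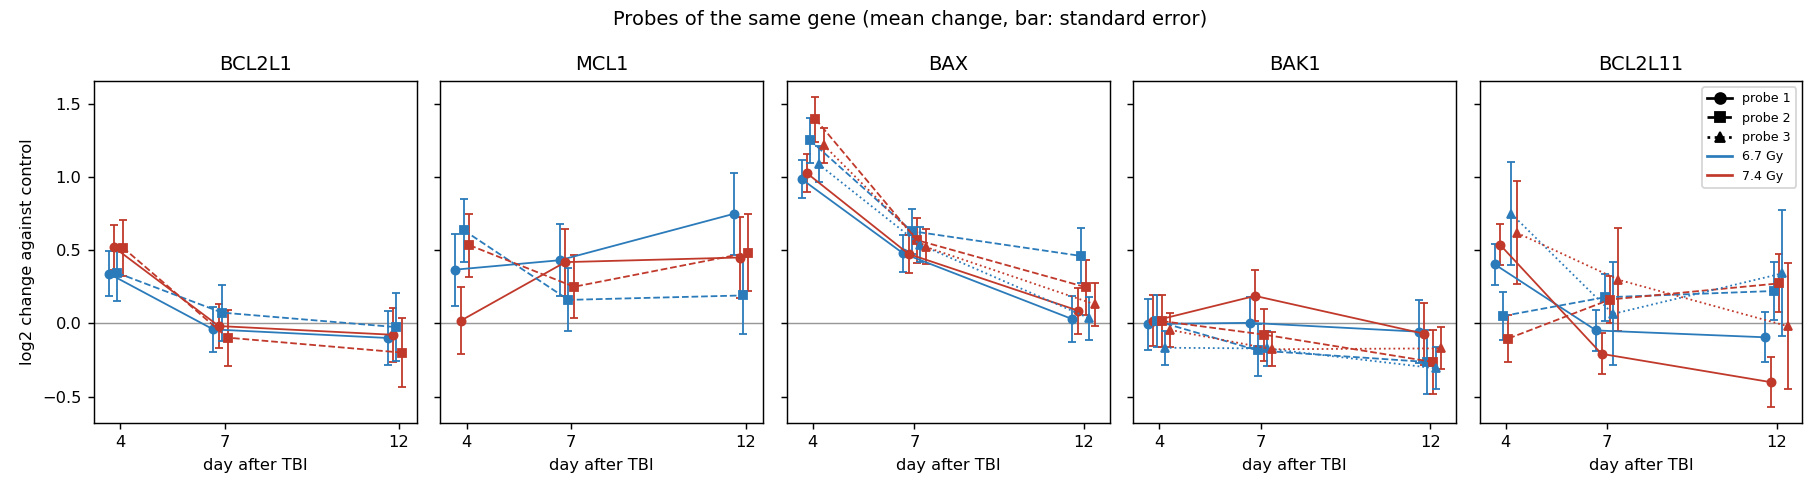
Change against control on a log2 y axis over the day after TBI on the x axis, for the 5 family genes with more than 1 probe. Markers and line styles are probes, colours are doses, points are limma estimates and bars are their SE. The 3 BAX probes run together from near 1 on day 4 towards 0 on day 12, and BCL2L11 probe 1 starts at 0.54 on day 4 after 7.4 Gy where probe 2 starts at -0.10.

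The time comparisons test the difference between days over both doses. From day 4 to day 7, 6 of 15 family probes passed, against 26% of all probes, and all 6 were lower, against 11.4%. From day 4 to day 12, 6 passed, against 23.9% of all probes, and again all 6 were lower, against 10.7%. In both comparisons the probes were the 2 of BCL2L1, the 3 of BAX and probe 1 of BCL2L11. By the brightest probe of each gene, 3 of 7 genes passed in each comparison, against 27.7% of all genes by day 7 and 25.6% by day 12. The median change of the 15 probes was -0.38 on day 7 and -0.52 on day 12, against 0.06 and 0.08 over all probes. The BAX probes fell by 0.53 ± 0.09, 0.72 ± 0.11 and 0.62 ± 0.09 by day 7 and by 0.95 ± 0.11, 0.97 ± 0.13 and 1.07 ± 0.10 by day 12. Their limma adjusted p ran from 5.65e-06 to 0.000411, and no animal of the later day overlapped with day 4.

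BCL2L1 probe 1 fell by 0.46 ± 0.11 by day 7 and by 0.52 ± 0.13 by day 12, with limma adjusted p = 0.00411 and 0.00773. BCL2L1 probe 2 fell by 0.44 ± 0.14 and 0.54 ± 0.17, with adjusted p = 0.0212 and 0.0227. The day-12 call of probe 2 was lost when any 1 of the 4 day-12 animals was left out, with changes from -0.57 to -0.52 and adjusted p from 0.054 to 0.0775, and its sign turned under normexp correction, which gave 0.12 with adjusted p = 0.533. Its day-7 call was lost under that correction too, at -0.18 with adjusted p = 0.352. BCL2L11 probe 1 fell by 0.60 ± 0.10 by day 7 and by 0.72 ± 0.12 by day 12, with adjusted p = 0.000307 and 0.000403. Under normexp correction these were -0.39 with adjusted p = 0.00965 and -0.27 with adjusted p = 0.0719, so the day-12 call was lost. PMAIP1 changed by -0.36 ± 0.24 and -0.52 ± 0.30, and neither passed the test (adjusted p = 0.294 and 0.213). MCL1 probe 2 changed by -0.38 ± 0.15 by day 7 with adjusted p = 0.072, and without replicate 4 of 6.7 Gy on day 4 by -0.45 with adjusted p = 0.0352.

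No family probe differed between the 2 doses on any day by limma, where 0% of all probes passed on day 4, 0% on day 7 and 0% on day 12. At an unadjusted p under 0.05, 1 of 15 family probes differed on day 4, 1 on day 7 and 0 on day 12, and the methods' t-test called 0 on each day after adjustment and 0, 0 and 1 before it. Of all 38234 probes tested, 2376 had an unadjusted p under 0.05 in limma on day 4 and 727 on day 7. On day 12, 1182 of 38214 did. Before adjustment, the methods' test passed 1968, 954 and 1478 of all probes on these days. By limma, the family probe of day 4 was BIK, at -0.52 for 7.4 against 6.7 Gy (95% confidence interval -1.01 to -0.04, unadjusted p = 0.0368 in limma). The day-7 probe was PMAIP1, at 0.82 (0.10 to 1.53, unadjusted p = 0.0272 in limma), and its day-4 difference was 0.56 (-0.15 to 1.28). For BAX probe 1 the interval of the dose difference on day 4 was -0.23 to 0.31, so differences within those bounds are not excluded with 4 animals per dose.

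The other 3 groups against control gave no family call. On day 7 after 6.7 Gy, where 0.382% of all probes passed, limma called 0 of 15 at the adjusted threshold and 4 at an unadjusted p under 0.05, and the methods' t-test gave 0 and 5. Of all 38234 probes in that comparison, 3680 had an unadjusted p under 0.05 in limma. The methods' test gave 4098 before adjustment. On day 12, 0.0183% of all probes passed after 6.7 Gy and 0.0288% after 7.4 Gy. Before adjustment, limma's p was under 0.05 for 2498 of 38215 probes after 6.7 Gy and 2619 of 38233 after 7.4 Gy. The methods' test gave 2316 and 2228 of all probes. There limma called 0 family probes at each dose, with 4 and 2 at an unadjusted p under 0.05, and the methods' t-test gave 0 and 0, with 3 and 1 unadjusted.

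The place of an array on its slide was not balanced over the groups. All 4 controls were at position 1 with 2 of the 6.7-Gy day-4 animals, and no animal of day 7 or 12 shared a position with controls or day 4, so position and day cannot be told apart there. Every 7.4-Gy day-4 animal was at position 2, with the rest of the 6.7-Gy day-4 animals, so none shared a position with a control. With position as a block, the 7.4-Gy day-4 changes therefore rest on the 6.7-Gy day-4 animals as the only link between positions 1 and 2. Within position 1, the 6.7-Gy day-4 change was 1.03, 1.36 and 1.04 for BAX probes 1 to 3 and 0.89 for PMAIP1. By day of scanning, of which there were 2, BAX probe 1 changed by 0.92 and 1.05 after 6.7 Gy on day 4, PMAIP1 by 1.67 and 0.99, and BIK by 0.44 and -0.79. After 7.4 Gy on day 4, for which all animals were scanned on the second day, the changes against the 2 controls of that day were 1.04 for BAX probe 1, 1.99 for PMAIP1, 0.48 for BCL2L1 probe 1, 0.45 for BCL2L11 probe 1 and -0.90 for BIK. On day 7 after 7.4 Gy, PMAIP1 changed by 1.24 and 2.09 on the 2 scan days. With slide as a block, the BAX probes kept changes between 1.04 and 1.34 on day 4 over both doses, and PMAIP1 changed by 1.11 after 6.7 Gy (adjusted p = 0.0655), by 1.96 after 7.4 Gy (adjusted p = 0.00211) and by 1.45 on day 7 after 7.4 Gy (adjusted p = 0.118). The 7.4-Gy day-4 calls of BCL2L1 probe 1 and BIK were lost with slide as a block, at 0.39 (adjusted p = 0.0969) and -0.59 (adjusted p = 0.12), and with scan day as a block, at 0.45 (adjusted p = 0.061) and -0.62 (adjusted p = 0.0982). With array position as a block, PMAIP1 after 6.7 Gy on day 4 had an adjusted p of 0.166, while the BAX probes kept changes between 1.03 and 1.61 on day 4 and passed at both doses.

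Markers of the tissue's cell types also changed on day 4, each gene taken by its brightest probe. Over all 14737 genes taken so, 780 were called higher and 827 lower after 6.7 Gy. After 7.4 Gy these counts were 1553 and 1671. Of 8 tested epithelial markers, all well above background in every animal, 6 were called lower after 6.7 Gy and 7 after 7.4 Gy. Of 10 tested markers of absorptive colonocytes, 6 and 8 were called lower. The mean log2 level of the colonocyte list, relative to the control mean, ran from -0.16 to 0.22 in controls, from -3.65 to -1.83 on day 4 after 6.7 Gy, from -5.40 to -1.96 after 7.4 Gy, from -0.81 to -0.24 on day 7 after 6.7 Gy and from -2.13 to -0.16 after 7.4 Gy. Of 7 markers of dividing cells, 3 and 2 were called higher on day 4, with a mean level from 0.40 to 0.98 and from 0.27 to 1.11 against -0.36 to 0.21 in controls. Of 7 fibroblast markers, 0 and 6 were called higher, with a mean level from 0.27 to 0.89 and from 0.86 to 1.29 against -0.24 to 0.47. Neutrophil markers (2 of 6 called higher and 1 lower) had mean levels from -0.07 to 1.94 on day 4 after 7.4 Gy, overlapping the -0.36 to 0.28 of controls. The neutrophil genes called higher were S100A8 and S100A9, and CSF3R was called lower. Macrophage markers (1 of 5 called higher) had mean levels from -0.015 to 1.47 in that group, overlapping the -0.225 to 0.23 of controls. The largest macrophage change was that of MARCO, 2.01 ± 0.98, which was not called and was well above background on 0 control arrays. Of 5 endothelial markers, 1 and 2 were called higher on day 4, with a mean level from 0.03 to 0.60 and from 0.24 to 0.72 against -0.15 to 0.14 in controls. Of 3 red blood cell markers, 2 were called lower at each dose on day 4 and 1 at each dose on day 7, with mean levels from -4.06 to -1.84 over those animals against -1.21 to 0.56 in controls. Of 8 T lymphocyte markers, 1 was called lower after each dose on day 7, when the mean level ran from -1.21 to -0.77 after 6.7 Gy and from -1.38 to -0.36 after 7.4 Gy, overlapping the -0.996 to 0.55 of controls. Of 5 goblet cell, 5 plasma cell, 8 T lymphocyte and 6 enteric nerve and glia markers, 1 each was called lower on day 4 after 7.4 Gy. The part of these cell types in the changes of the BCL2 family was not tested.

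Other genes of the apoptosis pathways were taken as lists, each gene by its brightest probe, of which 10.9% passed on day 4 after 6.7 Gy and 21.9% after 7.4 Gy over all 14737 genes, with medians of -0.04 and -0.03. Of 8 further BCL2 family genes tested, 2 were lower after 6.7 Gy and 3 after 7.4 Gy, and none was called higher. BCL2L15 fell by 0.52 ± 0.14 and 0.79 ± 0.14 (limma adjusted p = 0.0238 and 0.000766) and BCL2L14 by 1.02 ± 0.32 at both doses (adjusted p = 0.0491 and 0.0306), the latter by 1 of its 2 probes. BCL2L10 was called lower after 7.4 Gy but was well above background on 4 of 24 arrays. BCL2A1 had positive values of 0.96 ± 0.53 and 1.40 ± 0.53, which did not pass the test (limma adjusted p = 0.267 and 0.0698). The list's median was -0.30 and -0.57. BCL2L15 was called by 2 of its 3 probes after 6.7 Gy and by 3 after 7.4 Gy. Leaving out 1 of the 8 animals compared ended the BCL2L15 call at 6.7 Gy for 5 animals (-0.50 to -0.39) and the BCL2L14 calls for 6 animals at each dose (-1.14 to -0.68 and -1.03 to -0.78).

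Of 15 genes downstream of mitochondria, 2 were higher and 4 lower after 6.7 Gy, and 3 higher and 5 lower after 7.4 Gy, with medians of -0.25 and -0.26. Higher at both doses were BIRC3, an inhibitor-of-apoptosis protein induced by NF-kB, at 1.33 ± 0.28 and 1.95 ± 0.28, and BIRC5, which encodes survivin, at 0.92 ± 0.28 and 0.84 ± 0.28, the latter by 1 of 2 probes. DFFA, the inhibitor of the caspase-activated nuclease, rose by 0.48 ± 0.16 after 7.4 Gy. XIAP and BIRC2, of the same protein family as BIRC3, fell, XIAP by 0.67 ± 0.20 and 0.86 ± 0.20 and BIRC2 by 0.60 ± 0.16 and 0.64 ± 0.16. CYCS, cytochrome c itself, fell by 0.94 ± 0.29 after 6.7 Gy, and APAF1, its partner in the apoptosome, fell by 0.60 ± 0.17 after 7.4 Gy. The calls of BIRC3, and those of XIAP and BIRC2 after 7.4 Gy, held without any 1 animal but were lost with array position as a block. Of the other calls, that of APAF1 was lost without 2 of the 8 animals compared, those of DFFA and of BIRC2 after 6.7 Gy without 4, those of XIAP after 6.7 Gy and BIRC5 after 7.4 Gy without 6, and those of BIRC5 and CYCS after 6.7 Gy without 7, with adjusted p from 0.0539 to 0.158.

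Of 8 tested genes of the death receptor pathway, 1 was higher and 1 lower after 6.7 Gy, and 2 higher and 1 lower after 7.4 Gy. The receptor gene TNFRSF10A rose by 0.70 ± 0.13 and 0.95 ± 0.13 (limma adjusted p = 0.00269 and 7.02e-05), and FAS rose by 0.80 ± 0.23 after 7.4 Gy. After 6.7 Gy the brightest FAS probe was not called, at 0.73 ± 0.23 with adjusted p = 0.05, while its other probe was called higher. CASP10, an initiator caspase, fell by 0.66 ± 0.20 and 0.60 ± 0.20, by 1 of its 2 probes. The 7.4-Gy call of the brightest FAS probe was lost without 2 of the 8 animals compared (0.54 and 0.62), and the CASP10 calls without 5 and 6 (-0.65 to -0.53 and -0.59 to -0.47). The medians were -0.15 and -0.13.

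Of 9 tested genes of damage signalling and p53, 1 was higher and 1 lower after 6.7 Gy, and 2 higher and 1 lower after 7.4 Gy, with medians of 0.22 at both. CDKN1A, the p53 target that encodes p21, rose by 1.27 ± 0.22 and 1.12 ± 0.22 (limma adjusted p = 0.00267 and 0.00221), and MDM2, which restrains p53, rose by 0.56 ± 0.15 after 7.4 Gy. After 6.7 Gy the brightest MDM2 probe was not called, at 0.37 ± 0.15 with adjusted p = 0.117, while its other probe was called higher. FOXO3, a transcription factor, fell by 0.65 ± 0.13 and 0.62 ± 0.13 on day 4 and by 0.64 ± 0.13 on day 7 after 7.4 Gy (adjusted p = 0.0249). By the brightest probe of each gene, FOXO3 was the only gene of these 4 lists called against control on day 7 or 12. Its day-7 call was lost without control replicate 2 (-0.61) or 4 (-0.63) and without irradiated replicate 1 (-0.65), 2 (-0.63) or 4 (-0.61). On day 7 after 7.4 Gy, FAS was called higher by its other probe. Its brightest probe was not called, at 0.59 ± 0.23 with limma's adjusted p = 0.322.

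**Figure D4:**
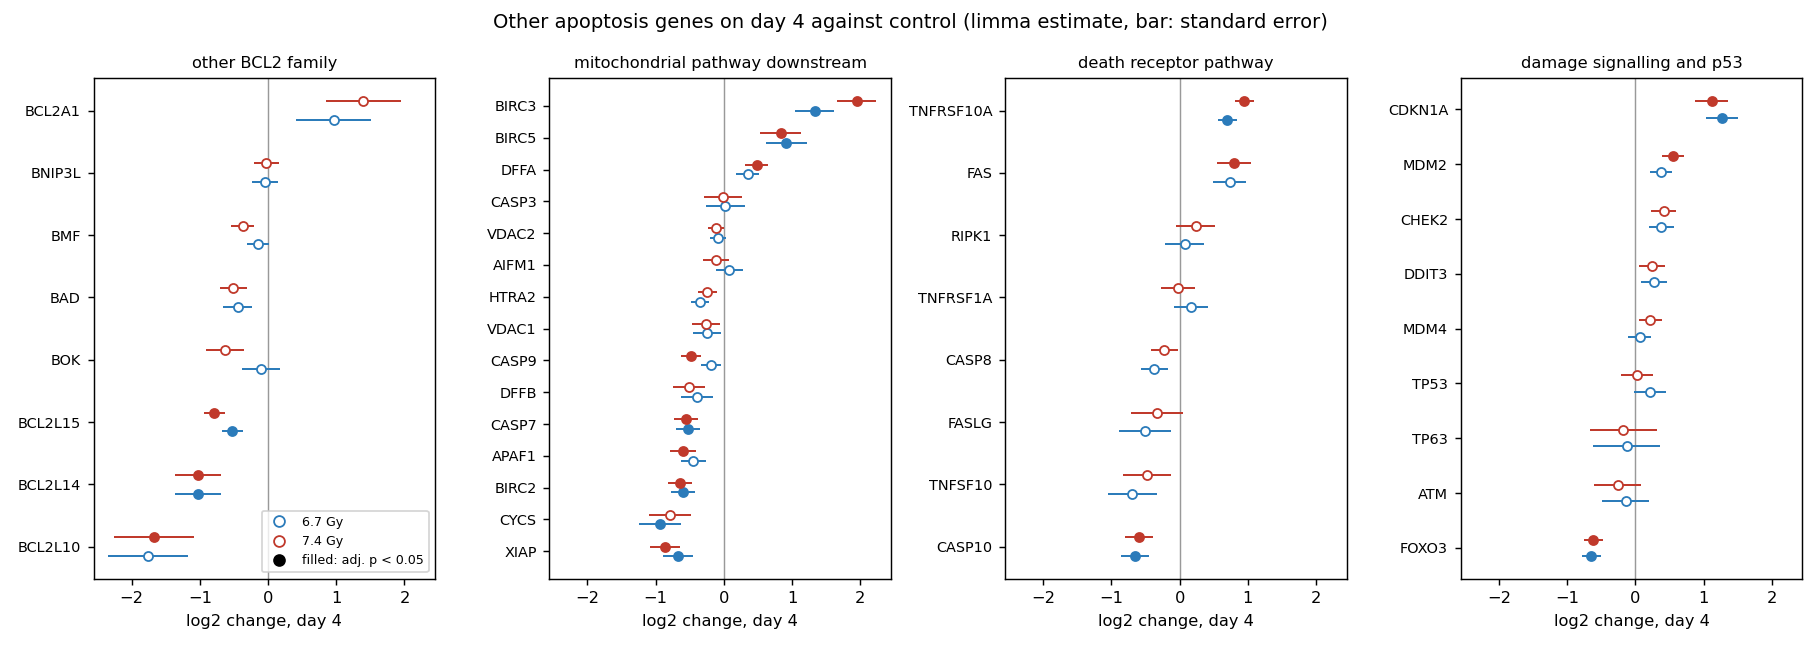
Change on day 4 against control, on a log2 x axis, of the tested genes of 4 lists (panels) outside the 10 members examined. Points are limma estimates for the brightest probe of each gene, bars are SE, colours are doses and filled points passed an adjusted p of 0.05. BIRC3 is the highest filled gene, at 1.33 and 1.95, and filled genes lie on both sides of 0 in each list except the further BCL2 family, where all are lower.

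Over both doses, day 7 differed from day 4 in 27.7% of all genes and day 12 in 25.6%. Of the 15 genes downstream of mitochondria, 7 rose and 1 fell by day 7, while 7 rose and 3 fell by day 12. Among the further BCL2 family genes the counts were 2 and 1 of 8 on day 7 and 3 and 1 on day 12, in the death receptor pathway 2 and 1 of 8 and then 2 and 2, and in damage signalling 0 and 2 of 9 on both days. The further BCL2 family gene that fell on both days was BCL2A1, by both of its probes. Its brightest probe fell by 1.74 ± 0.38 and 2.16 ± 0.46, with limma's adjusted p = 0.0024 and 0.00246.

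The genes whose levels over the 24 arrays were most like those of the 2 members called in most groups were named by Pearson's r, as a description over arrays that share the same 7 groups. For PMAIP1 they were CASP5, an inflammatory caspase, at 0.892, SLC1A1 at 0.806 and OSBPL3 at 0.799. For BAX probe 1 they were SLC28A3 at 0.949, SEPHS1 at 0.934 and GTF3A at 0.924.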

How the data were processed

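Colon RNA of 24 animals was measured on 1-colour Agilent rhesus arrays, 1 per animal. Per the file headers, the deposited intensity of a spot is the processed signal of Feature Extraction 11.0.1.1, background-subtracted and spatially detrended, on an array design built on rheMac2. The authors also deposited a table of log2 values, normalized to the 75th percentile, which was used as an alternative, and tables whose gene symbols were used here.

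Each array's log2 signal was centred on its 75th percentile, outlier spots were set to missing, spots of a probe were averaged, and probes well above background on at least 2 of 24 arrays were kept. Groups were taken from the labels. One label text gives day 21 as the last day, while each sample's own label gives day 12, which was followed. With R 4.3.3 and limma 3.58.1, 1 mean per group was fitted over all arrays, with Benjamini-Hochberg adjustment over all probes tested. The 11 comparisons were each irradiated group against control, the doses within a day, and days 7 and 12 against day 4 over both doses. The authors' methods used a t-test with a fold threshold of 2, and both were run as alternatives. The scripts were tested on simulated data. No library labelled as a replicate was identical to another (0 pairs of arrays).

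All member probes are named. In the other apoptosis lists, a gene stands by its brightest probe, and of the called genes the text names, for day 4, those with the 3 largest rises and the 3 largest falls per list, and any called later. BCL2A1 is named in addition, with its values known. The 10 members and all lists, markers included, were chosen with earlier results of these data known. Alternatives were background correction by normexp (offset 50), quantile, median and spike-in scaling, the deposited normalized table, 2 other filters on dim probes, outlier spots kept, only the groups compared, slide, array position, scan day or replicate number as a block, and each animal left out. Sequences and genome positions are not given here.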

Additional observations from a re-analysis of the deposited data

Results flagged for a closer look

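In 4 of the 73 combinations of a probe and a group of 4 animals that were examined, 1 animal stood far from the other 3, and chance alone flags about 1 in 20 such groups. Control replicate 4 had an MCL1 probe 2 level of 1.80, where the other controls lay between 2.70 and 2.82. Replicate 2 of 6.7 Gy on day 7 had a BAX probe 1 level of 1.68, against 2.06 to 2.10 in the other 3, and a BCL2L11 probe 3 level of -5.31, against -6.12 to -6.01. Control replicate 3 had a BCL2L11 probe 1 level of -2.06, against -2.49 to -2.42 in the other controls.

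The response to TBI differed between days for 6 probes, by limma's test of the difference between days over both doses. On day 7 against day 4, the values were -0.46 and -0.44 for BCL2L1 probes 1 and 2, -0.53, -0.72 and -0.62 for BAX probes 1 to 3, and -0.60 for BCL2L11 probe 1. On day 12 against day 4, they were -0.52 and -0.54 for BCL2L1, -0.95, -0.97 and -1.07 for BAX, and -0.72 for BCL2L11 probe 1. Day and array position cannot be told apart in these differences.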

How the results depend on the processing

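The day-4 calls of the 3 BAX probes kept their direction under every alternative run and passed the test in each, except that BAX probe 1 after 6.7 Gy was under the 2-fold threshold. After 6.7 Gy on day 4 the count of called family probes was 4. It was 7 with spike-in scaling, 6 with array position as a block, and 3 to 5 in the other alternatives (3 to 6 when 1 animal was left out). After 7.4 Gy it was 7. It was 4 at 2-fold, 8 with spike-in scaling and with only the groups compared, and 5 to 7 in the other alternatives and without 1 animal. On day 7 after 6.7 Gy it was 0, but 1 under normexp correction, under median scaling, with a filter for signal above background on every array of a group, and with the replicate block, and 0 to 1 without 1 animal. On day 7 after 7.4 Gy it was 1, but 0 under normexp correction, with only the groups compared, by the methods' t-test and with slide as a block, and 2 under quantile normalization and the stricter filter, and 0 to 2 without 1 animal. At 2-fold, the count fell from 6 to 0 for day 7 against day 4 and from 6 to 1 for day 12 against day 4, with 6 to 7 and 5 to 6 without 1 animal. By the methods' t-test after adjustment, 3 family probes and 1156 of all probes passed on day 4 after 6.7 Gy. After 7.4 Gy, 7 and 4497 did. For the other alternatives the share of all probes is not given. Their counts, here and below, therefore do not show whether the family moved apart from all probes.

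Under normexp correction, 2 values for day 12 against day 4 turned sign. BCL2L1 probe 2 went from -0.54 to 0.12, and the dim BCL2L11 probe 3 from -0.52 to 0.51 with limma's adjusted p = 0.0191. Normexp also shifted the median of all probes in that comparison by 0.23, and for 7.4 Gy on day 12 against control by 0.31. The cause was not tested. With replicate number as a block, the counts in the order of the comparisons against control were 5, 6, 1, 1, 0 and 0, those between doses 0, and those between days 7 and 6. A count does not show which probes it holds: on day 7 after 7.4 Gy this block lost PMAIP1 (adjusted p = 0.0606) and gained BAX probe 3 (0.52, adjusted p = 0.0409), and on day 4 after 7.4 Gy it lost BIK (adjusted p = 0.0537), all by limma. Over the tested probes, deviations of same-numbered animals of different groups had a median correlation of 0.003 (62 pairs, from -0.228 to 0.236). The median was -0.002 for different numbers, and 5 of 20 arrays correlated best with their own number. These correlations cannot show whether animals of the same number shared any handling. Of the changes of single family probes recomputed under the alternatives, 3601 kept their side of the threshold with no such turn, 64 lost a call, 36 gained one, and 51 were uncalled values that changed sign by more than 1 SE. The 3601 include values that were uncalled throughout, while only a called value can lose a call. Losses ran from 0 of 23 alternatives for BAX probes 2 and 3 on day 4 to 15 of 23 for BIK on day 4 after 7.4 Gy. The pathway genes were added to these alternatives after seeing the data.

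Spike-in scaling shifted the median change of all probes on day 4 by 0.22 after 6.7 Gy and by 0.28 after 7.4 Gy, so its counts of higher probes are read against that shift. With 2 animals per dose on day 12 and 4 elsewhere, the number of arrays limited the precision, and for BCL2L11 probe 3 the signal over background did so too.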
